A study of Mus musculus with 3 samples.

Results

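Shared high genic 5hmC bins are stretches of 10 kb of the mouse genome, inside or overlapping a protein-coding gene, in which the deposited level of 5-hydroxymethylcytosine (5hmC) was at least 5% in each of 3 cerebellum libraries. They were chosen by that threshold alone, on the autosomes only. Of 264399 bins in the table, 239486 were autosomal and 111844 of these were genic, that is, they overlapped a protein-coding RefSeq gene of GRCm38 by at least 1 bp. The rule kept 1024 bins, which is 0.916% of the autosomal genic bins. Because the values of all 3 libraries chose the bins, their levels are given as a description, with no test.

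The first library came from mouse cerebellum after chronic sleep deprivation, profiled by DDD-seq (double-stranded DNA deamination sequencing). The second was an ACE-seq (APOBEC-coupled) profile of cerebellum labelled as normal or control, and the third was a DDD-seq profile of cerebellum with the same label. Each group had 1 library. The sources used here do not give strain, age, sex, the number of animals or the scheme of sleep deprivation. The protocol text of all 3 libraries is identical and names the deaminase SsdAcat, also for ACE-seq, so its own deamination step cannot be told from the labels. The files hold no RNA, so the tissue label could not be checked against the expression of marker genes. There was no replicate error, and every difference below is one between libraries.

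5hmC is made by the TET enzymes, which oxidise 5-methylcytosine. It is abundant in neurons, where it is found along the bodies of transcribed genes and is low at active promoters with many CG dinucleotides. Cerebellar DNA is mostly that of granule cells, the small excitatory neurons that make up most cells of this tissue. Both methods attach a glucose to 5hmC, so that a deaminase which converts cytosine and 5-methylcytosine leaves it unchanged. A level is then the share of cytosine signal that stayed unconverted.

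Many of the bins lay shortly after annotated transcription starts, in a few genes at a start far inside the gene. Windows around 5 such starts are therefore shown. Each runs from 250 bases before to 50 bases after a RefSeq start on GRCm38, read 5′ to 3′ in the direction of the gene. Capitals mark CG dinucleotides, the cytosines that carry most 5hmC in mammals. The Nrxn3 window lies at chr12:89812233-89812532 on the plus strand, in bin 110 of the 162 bins of the gene. The Gpm6a window is chr8:54954478-54954777 (plus strand), the Cdh18 window chr15:23036213-23036512 (plus strand) and the Celf2 window chr2:6871986-6872285 (minus strand). The Kcnd2 window, at chr6:21215096-21215395 on the plus strand, lies at the outer start of its gene and is shown for contrast. The genes were chosen after their values were seen.
Nrxn3: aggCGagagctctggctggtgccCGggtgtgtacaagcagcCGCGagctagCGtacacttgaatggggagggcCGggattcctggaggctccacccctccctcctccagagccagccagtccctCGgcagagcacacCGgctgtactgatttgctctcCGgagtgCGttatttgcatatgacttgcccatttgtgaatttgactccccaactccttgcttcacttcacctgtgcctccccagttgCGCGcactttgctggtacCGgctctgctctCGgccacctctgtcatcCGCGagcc
Gpm6a: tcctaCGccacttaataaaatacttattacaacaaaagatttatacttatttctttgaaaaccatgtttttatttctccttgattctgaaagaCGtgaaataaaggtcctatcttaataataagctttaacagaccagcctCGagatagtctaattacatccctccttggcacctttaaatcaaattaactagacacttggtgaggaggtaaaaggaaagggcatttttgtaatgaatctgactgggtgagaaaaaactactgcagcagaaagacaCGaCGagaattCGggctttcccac
Cdh18: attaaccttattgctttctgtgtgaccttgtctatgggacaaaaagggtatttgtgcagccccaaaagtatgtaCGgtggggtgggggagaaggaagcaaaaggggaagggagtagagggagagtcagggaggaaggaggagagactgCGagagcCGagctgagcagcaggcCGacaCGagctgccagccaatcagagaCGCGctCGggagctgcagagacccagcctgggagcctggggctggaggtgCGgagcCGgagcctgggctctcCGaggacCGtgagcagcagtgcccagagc
Celf2: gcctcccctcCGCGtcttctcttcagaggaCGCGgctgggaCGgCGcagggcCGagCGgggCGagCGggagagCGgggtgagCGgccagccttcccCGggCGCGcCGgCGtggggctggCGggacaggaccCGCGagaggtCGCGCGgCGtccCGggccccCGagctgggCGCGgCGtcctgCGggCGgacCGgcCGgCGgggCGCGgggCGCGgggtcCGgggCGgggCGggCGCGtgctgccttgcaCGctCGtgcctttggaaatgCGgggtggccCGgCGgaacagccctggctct
Kcnd2: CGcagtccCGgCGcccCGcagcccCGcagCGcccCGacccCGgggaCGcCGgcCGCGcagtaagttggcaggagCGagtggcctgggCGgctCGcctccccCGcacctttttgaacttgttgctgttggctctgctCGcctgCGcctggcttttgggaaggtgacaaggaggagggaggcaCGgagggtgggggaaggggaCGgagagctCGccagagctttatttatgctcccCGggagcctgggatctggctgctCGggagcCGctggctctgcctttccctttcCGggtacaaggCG

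These windows held 16 CG in Nrxn3, 6 in Gpm6a, 12 in Cdh18, 48 in Celf2 and 26 in Kcnd2. The motif CG reads the same on both strands, and it occurred in 94.8% of the 31396 autosomal windows of the same length, with a median of 7 per window. The Gpm6a window was near this median, and the Celf2 window far above it. At the outermost listed start, the median was 25 CG in 295 genes of at least 5 bins that held a shared high bin, and 20 in 4711 such genes without. Among the 44 genes with at least 5 shared high bins and a listed start, the median was 18.

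The mean level over the 1024 bins was 6.94% in the sleep-deprived library, 6.80% in the ACE-seq control and 6.90% in the DDD-seq control, with SDs over bins of 2.44, 1.60 and 1.65 points in that order. Medians were 6.46%, 6.41% and 6.52%. The genic bins outside the set had means of 1.71%, 1.67% and 1.71% in the same libraries. The lowest level of Dclk2, Sh3gl2 and Pak1 bins just inside the threshold was 5% in the sleep-deprived library, and that of an Nrxn3 bin was 5% in the ACE-seq control. Just outside stood a bin of Nfib with 4.998% in the sleep-deprived library and a bin of Tcf4 with 4.998% in the ACE-seq control. A bin of Ptprd with 4.994% in the sleep-deprived library, and bins of Csnk1g1 and Rims2 with 4.992% in the DDD-seq control, followed.

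The bin with the highest level lay in Ccl21b (chr4:42200001-42210000), a chemokine gene with near-identical copies. It had 66.7% in the sleep-deprived library, 22.2% in the ACE-seq control and 25% in the DDD-seq control. Reads of such copies cannot be placed with certainty, and the number of cytosines read in this bin is unknown, so these values are uncertain. Whether they rest on few cytosines was not tested. The next bin by its lowest library lay in Ctnnd2, which encodes delta-catenin, an adhesion protein of synapses, with 12.6%, 12.4% and 14.2% in the same order. A bin of Hif1a, encoding a hypoxia-inducible transcription factor, had 11.2%, 11.4% and 14.1%. A bin of Gabrb2 had 12.8%, 11.1% and 12.9%. These 4 bins were named after their values were seen.

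Part of the high bins of each library was shared by all 3. Among 111755 genic bins with 3 values, 1349 passed in 1 library, 772 in 2 and 1024 in all 3, while the single libraries had 1.79% (sleep-deprived), 1.73% (ACE-seq control) and 1.81% (DDD-seq control) of these bins past it. Bins that passed in 2 libraries can be read in the third, which then did not choose them. Of 1256 genic bins at 5% or more in both controls, 1024 (81.5%) also reached it in the sleep-deprived library, where their mean was 6.46% and 11 of them lay under 3%. Of 1318 such bins of both DDD-seq libraries, 77.7% reached it in the ACE-seq control, with a mean of 6.24%. Of 1270 bins past it in the sleep-deprived library and the ACE-seq control, 80.6% reached it in the DDD-seq control, with a mean of 6.39%. Outside genes, 36 of 127642 bins passed in all 3 libraries (0.0282%), so 96.6% of all autosomal bins past the threshold were genic, against 46.7% of autosomal bins.

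By DDD-seq, the sleep-deprived library was higher in 514 bins and lower in 509, with a mean difference of 0.0349 points (SD over bins 1.83) and a median of 0.00817 points. Without the Ccl21b bin the mean difference was −0.00577 points. Levels at least 1.25 times higher in the sleep-deprived library were found in 92 bins (8.98%), against 22.4% of all genic bins, and levels at least 1.25 times lower in 97 (9.47%), against 21.8%. Between the controls, ACE-seq minus DDD-seq was −0.0986 points on average (SD over bins 1.29), with 497 bins higher and 527 lower in ACE-seq. At the same fold, 96 bins (9.38%) were higher in ACE-seq against 21.9% of all genic bins, and 129 (12.6%) were lower against 27.6%. The threshold requires high levels in every library and so limits these differences and ratios, and nothing is read from them. With the sleep-deprived library left out of the rule, sleep-deprived minus control was −0.244 points, and with the DDD-seq control left out it was 0.349 points. ACE-seq minus DDD-seq was −0.448 points with the ACE-seq library left out of the rule and 0.261 points with the DDD-seq control left out.

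The bins lay in 424 protein-coding genes, which is 2.06% of the 20538 autosomal genes with a bin in the table. A single shared high bin was held by 241 genes, 2 to 4 by 127 genes, and 5 or more by 56 genes. Those 56 genes held 482 bins, or 47.1% of the set. Only 13 bins overlapped 2 genes, and 6 of these were shared by Ctnna3 and Lrrtm3, a synaptic adhesion gene that lies inside it, so that all 6 bins of either gene were the same. In the set, 98.9% of bins lay wholly inside genes, against 74.3% of all genic bins. By chromosome, the share of genic bins in the set was between 0.334% on chromosome 7 (24 bins) and 1.75% on chromosome 3 (102 bins).

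Long genes held the bins more often, and had a larger share of their bins in the set. Of 226 genes of 50 to 228 bins, 58 held at least 1 shared high bin (25.7%), and 1.76% of their bins were in the set. In genes of 20 to 49 bins the share of bins was 1.18%, in genes of 10 to 19 bins 0.901%, in genes of 5 to 9 bins 0.756% and in genes of 2 to 4 bins 0.180%. The median length of a gene with such a bin was 111 kb, against 17.5 kb over all genes. Other long genes had none: Csmd1 (165 bins), Fhit (162), Pcdh15 (156), Robo2 (156) and Dpp10 (152) are the 5 longest of them. The mean level of Csmd1 was 1.77% in the sleep-deprived library, 1.71% in the ACE-seq control and 1.80% in the DDD-seq control.

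Synaptic adhesion genes came first by number. Nrxn3 encodes a neurexin, a presynaptic receptor that binds partners across the synaptic cleft. It held 25 shared high bins among its 162, with a mean of 7.61% ± 2.26 in the sleep-deprived library, 7.27% ± 2.06 in the ACE-seq control and 7.48% ± 1.57 in the DDD-seq control (SD over bins). The 100 kb on either side of the gene averaged 1.71%, 1.83% and 1.94%. Cadm2, an immunoglobulin-type adhesion gene, held 15 of 98, and Ptprd, a receptor phosphatase of the presynaptic membrane, 9 of 228. In the list of synaptic adhesion proteins, 95 of 1577 bins belonged to the set (6.02%, against 0.916% of all genic bins). Of its 23 genes of at least 5 bins, 8 held one (34.8%). The share was 6.0% over all genes of at least 5 bins, and 25.7% over those of 50 to 228 bins. The teneurin gene Tenm3, the longest of the list with none (131 bins), had 1.50%, 1.41% and 1.50%.

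Further adhesion genes of the cadherin and contactin families held 43 of 1847 bins (2.33%), in 9 of 34 genes of at least 5 bins. Pcdh9, a protocadherin gene, held 16 of 89 and Cdh18, a cadherin gene, 11 of 94. Cdh8 held 5 and Chl1, an L1-type adhesion gene, 4. Axon guidance genes held 18 of 1325 bins (1.36%). Unc5c, a netrin receptor gene, had 8 of these 18 and Epha3, an ephrin receptor gene, had 5.

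**Figure D1:**
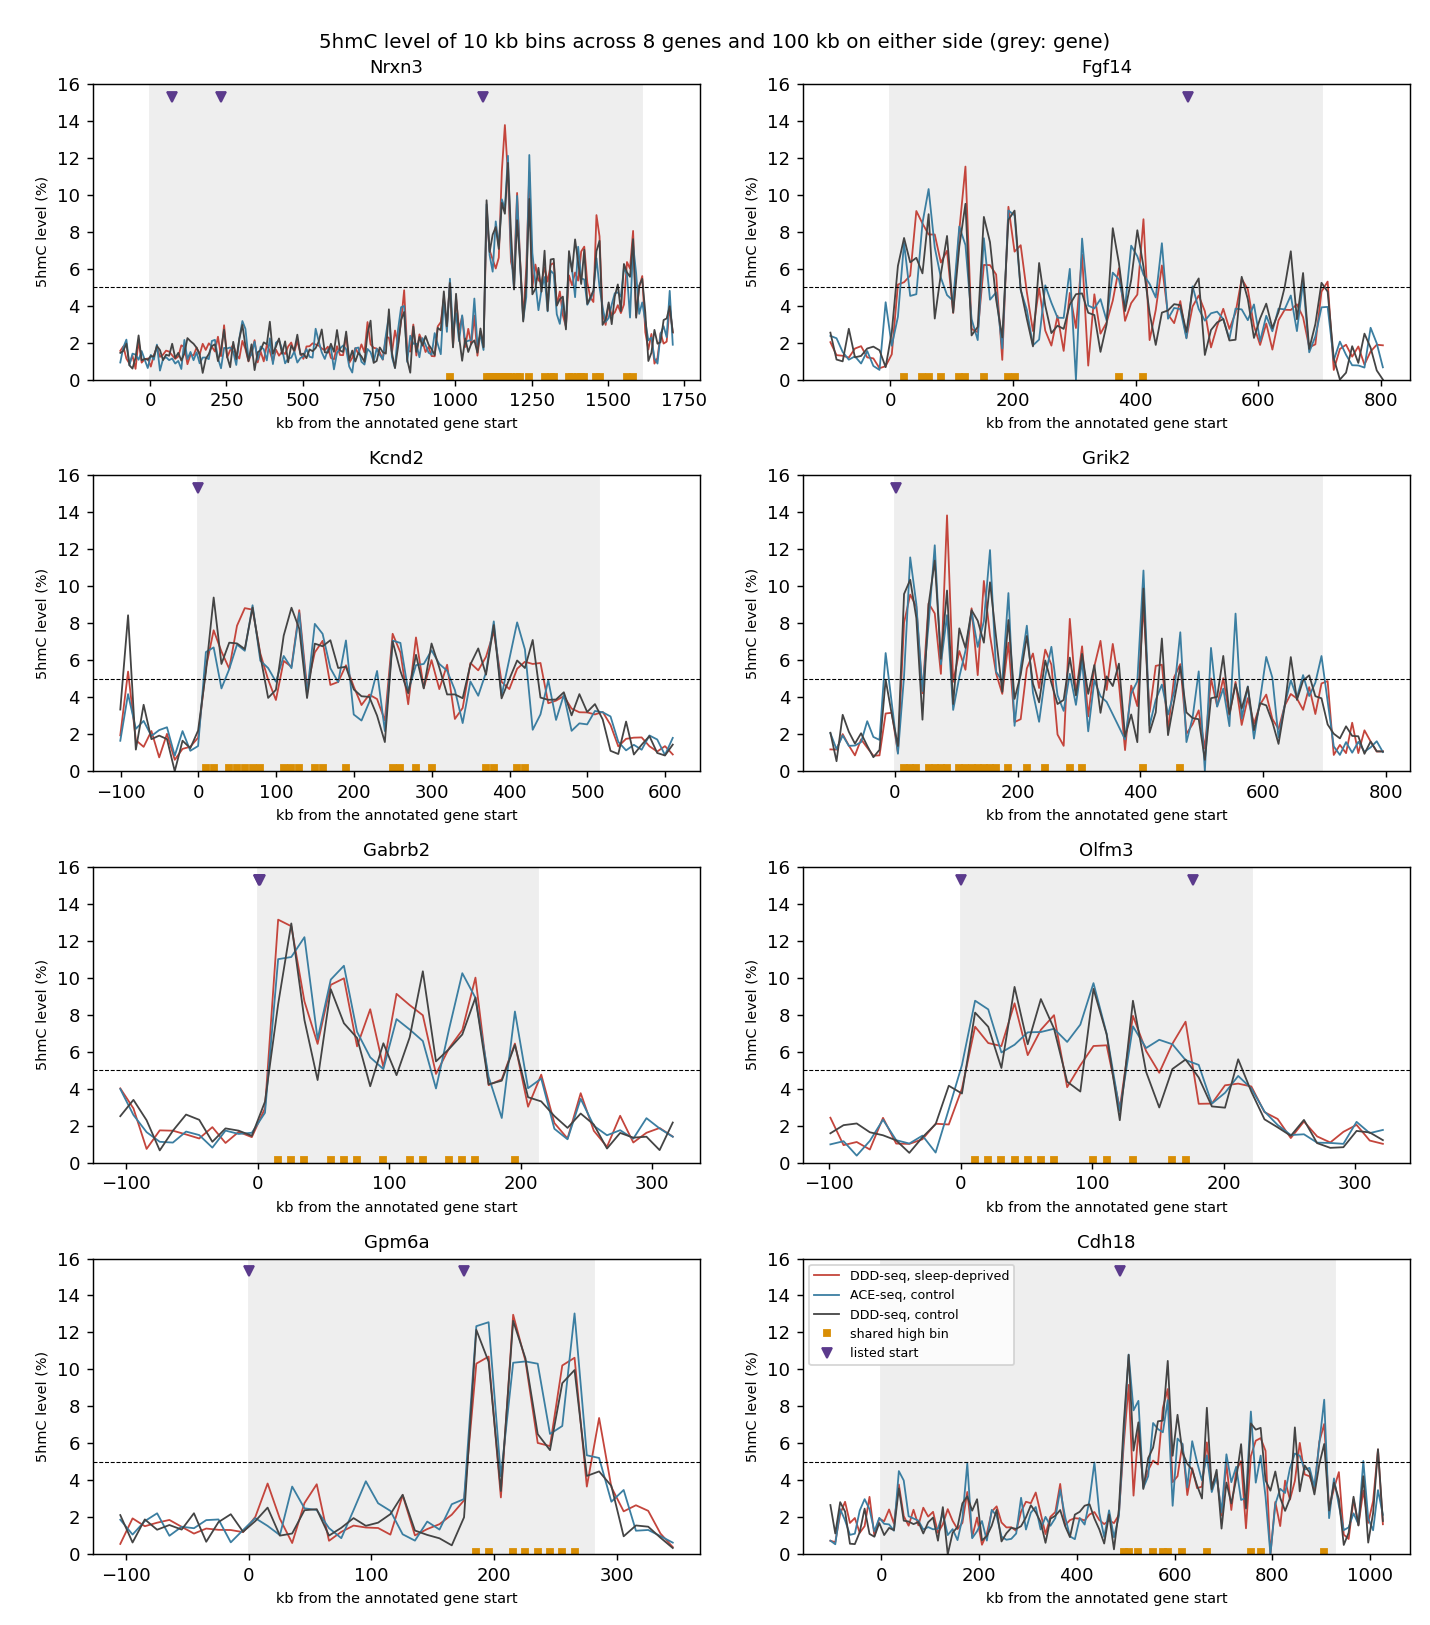
Level (%) of each 10 kb bin across 8 genes (grey) and 100 kb on either side, against distance in kb from the annotated gene start, in the sleep-deprived DDD-seq library (red), the ACE-seq control (blue) and the DDD-seq control (black). Squares mark shared high bins, triangles the listed starts where there are any, and the dashed line 5%. Levels lay near 2% outside the genes, and in Nrxn3, Gpm6a and Cdh18 the high bins, apart from 1 bin of Nrxn3, lay after an inner start. In Fgf14 they lay before it.

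Receptor genes of both fast transmitters were in the set. Gabrb2, the beta2 subunit gene of the GABA-A receptor, held 13 of its 23 bins, the highest share (56.5%) among genes of at least 20 bins. Those 13 bins averaged 8.62% ± 2.47 in the sleep-deprived library, 8.88% ± 2.15 in the ACE-seq control and 8.07% ± 1.96 in the DDD-seq control. The bins on either side of Gabrb2 averaged 1.86%, 1.83% and 1.87%. Gabrg3, the longest gene of the family without a shared high bin (68 bins), had gene levels of 1.07%, 1.07% and 1.15%. The list reached 17 of 248 bins (6.85%) and 3 of 11 genes (27.3%).

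Among ionotropic glutamate receptor genes, 34 of 617 bins belonged to the set (5.51%), in 4 of 14 genes of at least 5 bins. Grik2, a kainate receptor subunit gene, held 21 of 71 bins, with means of 7.66% ± 2.13 in the sleep-deprived library, 7.84% ± 2.35 in the ACE-seq control and 8.07% ± 1.67 in the DDD-seq control. The AMPA receptor genes Gria4 and Gria2 held 8 of 39 and 3 of 13. Grid1, a delta receptor gene, held none of 77. Metabotropic glutamate and GABA-B receptor genes with their auxiliary subunits held 9 of 409 bins (2.20%), of which 7 lay in Kctd8, an auxiliary subunit gene of the GABA-B receptor. Grm7, with 93 bins, held none.

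Of the ion channels, potassium channel genes held 28 of 1143 bins (2.45%), in 3 of 31 genes of at least 5 bins (9.68%, against 6.0%). Kcnd2, encoding the A-type channel Kv4.2 of granule cells, held 21 of these 28, with 6.78% ± 1.11 in the sleep-deprived library, 6.86% ± 1.02 in the ACE-seq control and 6.85% ± 1.18 in the DDD-seq control. Kcnj3, an inward rectifier gene, held 6 and Kcnk1 1. Sodium channel and intracellular FGF genes held 13 of 255 bins (5.10%), 11 of them in Fgf14, whose protein binds sodium channels of cerebellar neurons. Fgf12, with 61 bins and levels of 3.03%, 2.89% and 2.94%, held none. Calcium channel genes held 7 of 479 (1.46%), and genes of calcium release, pumps and exchangers 2 of 383 (0.522%). The calcium release list was thus below all genic bins by its share of bins. By holders it had 2 of 13 genes of at least 5 bins (15.4%, against 6.0%). Long genes hold such a bin more often, with 11.4% of all genes of 20 to 49 bins and 25.7% of longer ones. Gene length was not matched between any list and all genes.

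Genes of transmitter release held 56 of 921 bins (6.08%), spread over 14 of 37 genes of at least 5 bins (37.8%). Pclo, Rims1 and Rims2, scaffold genes of the active zone, held 8, 8 and 6. Cadps2, needed for dense-core vesicle release, held 8, and Syt1, the calcium sensor gene of synaptic vesicles, 7. Snap25, a SNARE gene of 8 bins, held 4. Erc2, with 86 bins, held none. In contrast to the GABA-A list, where 1 gene had most of the bins, no gene of the release list exceeded 8. Synaptic scaffold genes held 17 of 1099 bins (1.55%), 6 of them in Lin7a. Membrane traffic genes held 12 of 1055 (1.14%), near the share of all genic bins.

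Signalling genes were led by Ppp3ca, which encodes a catalytic subunit of the calcium-dependent phosphatase calcineurin. It held 13 of 28 bins (46.4%), with 6.92% ± 1.07 in the sleep-deprived library, 7.35% ± 1.51 in the ACE-seq control and 7.03% ± 1.36 in the DDD-seq control. Camk4, a calcium/calmodulin-dependent kinase gene of granule cells, held 6 of 27, and Gsk3b 3 of 17. The kinase and phosphatase list had 32 of 712 bins (4.49%) and 10 of 28 genes (35.7%). Phosphodiesterase and cyclase genes had 7 of 562 (1.25%), 5 of them in Pde3b. Cytoskeleton, motor and ankyrin genes had 18 of 1266 (1.42%), with 7 in Ank2 and 3 in Map2, a dendritic microtubule gene.

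Chromatin genes held 24 of 702 bins (3.42%), in 11 of 43 genes of at least 5 bins (25.6%). Jmjd1c, of the histone demethylase family, held 6, Jarid2, a Polycomb cofactor gene, 4 and Setd5 3. Transcription factor genes of neural development held 39 of 1239 (3.15%), 14 of them in Zfpm2, a cofactor of GATA factors, 6 in Etv1 and 5 in Tcf4. RNA-binding genes held 26 of 906 (2.87%), in 12 of 33 genes (36.4%), with 7 in Celf2, 5 in the splicing regulator gene Nova1 and 4 in Cpeb4, a regulator of mRNA polyadenylation. Ubiquitin ligase and proteasome genes held 17 of 689 (2.47%), with 5 in Cul3 and 4 in Ube3a. Glycosyltransferase genes held 24 of 983 (2.44%), 8 of them in Fut8, which adds the core fucose of N-glycans.

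Outside the lists, Olfm3, a secreted olfactomedin gene, held 12 of 23 bins (52.2%), with 7.04% ± 0.87 in the sleep-deprived library, 7.24% ± 1.19 in the ACE-seq control and 7.37% ± 1.60 in the DDD-seq control. Brinp1, a neural gene that restrains the cell cycle, held 9 of 20 (45%). Gpm6a, a neuronal membrane glycoprotein gene of the proteolipid family, held 8 of 30. In all, 147 of the 424 genes belonged to a list and 277 to none.

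Cell type markers differed in how many of the bins they held. Granule cell markers held 35 of 203 bins (17.2%), in Kcnd2 (21), Cadps2 (8) and Etv1 (6), a transcription factor gene of maturing granule cells with 6 of 10 bins. Rbfox3, the longest of the granule list with none (44 bins), had 1.98%, 1.84% and 1.94%, and 3 of 6 granule genes of at least 5 bins held one. Purkinje cell markers held 4 of 251 bins (1.59%), in 2 of 6 genes of at least 5 bins. Of these bins 2 lay in Plcb4, a phospholipase gene, while Itpr1, with 35 bins and 1.34%, 1.38% and 1.39%, held none. Oligodendrocyte markers held 2 of 74 bins (2.70%, above the Purkinje share), both in St18, which is 1 of 4 genes of at least 5 bins. Markers of interneurons (183 bins), astrocytes and Bergmann glia (44), microglia (22) and endothelium (74) held none. These lists are short: at the share of all genic bins, even the 183 bins of the interneuron list would hold fewer than 2. Kcnd2, Etv1, Cadps2 and Plcb4 are counted in a second list as well.

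Lists of genes best known from other tissues lay at the low end. None of 408 bins of collagen genes, 359 of axonemal dyneins, 200 of muscle sarcomere genes and 694 of vomeronasal receptors was in the set. Ribosomal protein genes, which are short and active in every cell, also held none, with 106 bins in all. Olfactory receptor genes held 1 of 1253 bins (0.0798%), that of Olfr825, with 5.47% in the sleep-deprived library, 5.49% in the ACE-seq control and 5.80% in the DDD-seq control. Olfactory receptor genes are a large family of similar copies, and this value is uncertain. Only 4 of 1103 matched olfactory and 26 of 348 matched vomeronasal receptor genes have at least 5 bins. Over all genes of 1 bin, 0.0246% of bins were in the set, and over those of 2 to 4 bins 0.180%. Whether the shares of these lists are low for their gene length and number of bins was not tested. The median gene level of axonemal dynein genes was 1.22%, 1.22% and 1.23%, below the median of all genes of at least 5 bins with 1.53%, 1.49% and 1.53%. For granule cell markers it was 2.70%, 2.78% and 2.75%, and for chromatin genes 2.42%, 2.33% and 2.32%. Of the 35 lists, 24 had a share of bins above that of all genic bins and 9 had no bin in the set. The lists are of chosen genes, were made with earlier results of these data known, and overlap. The count of lists is therefore a description, and no enrichment was tested.

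**Figure D2:**
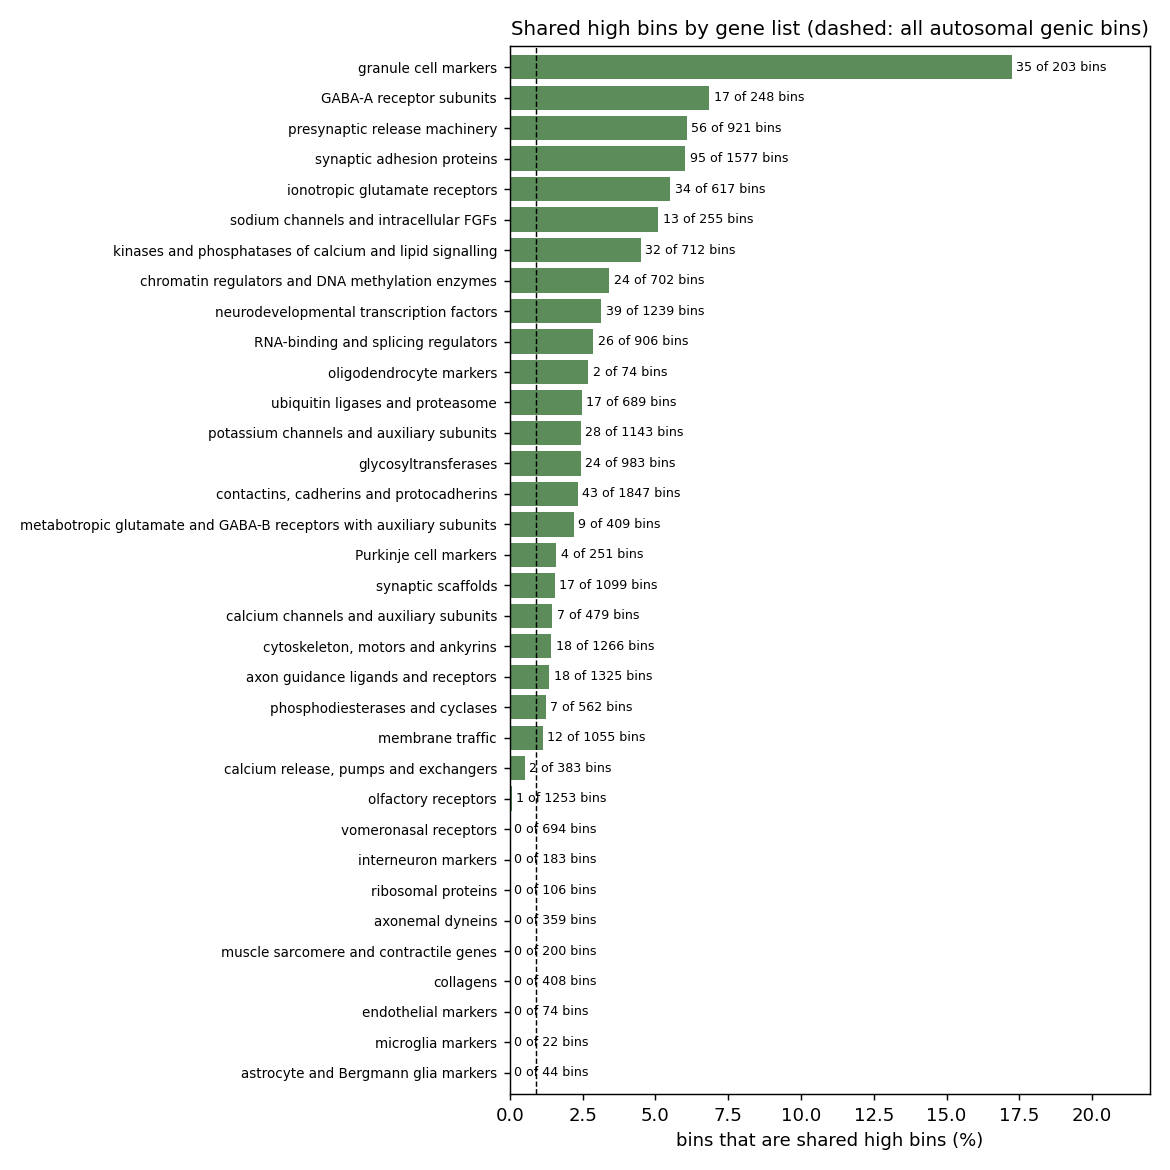
Share (%) of the 10 kb bins of 34 of the gene lists that were shared high bins, as bars with the number of such bins of all bins beside them. The dashed line is the share over all autosomal genic bins, 0.916%. Granule cell markers stood highest with 17.2%, and 9 lists had 0.

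Consecutive bins formed 754 runs, of which 585 were a single bin, 117 had 2 bins, 28 had 3, 14 had 4 and 10 had 5 or more. Runs of at least 2 bins held 439 bins (42.9%), against 53.4% at a threshold of 4% and 55.1% where a run may bridge 1 bin. The high bins of a gene nevertheless lay close to each other: of 613 consecutive pairs inside a gene, 272 were adjacent and 104 had 1 bin between them.

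Nrxn3 had a run of 9 bins or 90 kb (chr12:89820001-89910000), with a mean of 8.59% in the sleep-deprived library, 8.42% in the ACE-seq control and 8.66% in the DDD-seq control, and the bin before it, which holds the inner start, had 1.79%, 1.60% and 1.74%. The rule itself places a genic bin beside a run below 5% in at least 1 library, so nothing is read from this step. Runs of 7 bins lay in Grik2 (chr10:49620001-49690000) with 6.98%, 7.48% and 7.94%, and in Olfm3 (chr3:114910001-114980000) with 7.11%, 7.25% and 7.52%. Gpm6a had a run of 6 bins (chr8:54990001-55050000) with 9.36%, 9.60% and 9.10%, and runs of 5 bins lay in Cnot2, Cul3, Kansl1 and Kcnd2.

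Genic bins next to a shared high bin were themselves above the usual level. At a distance of 1 bin, the other genic bins had medians of 3.53% in the sleep-deprived library, 3.53% in the ACE-seq control and 3.66% in the DDD-seq control (1397 bins). At 10 bins the medians were 2.66%, 2.61% and 2.71% in genes, and 1.49%, 1.44% and 1.53% between genes. Over genes of at least 5 bins, the remaining bins of genes with a shared high bin averaged 2.83%, 2.78% and 2.84% (10004 bins). Genes without one averaged 1.68%, 1.64% and 1.68% (76682 bins). The medians were 2.61%, 2.57% and 2.63% with one, and 1.50%, 1.47% and 1.51% without. The remaining bins include some past 5% in 1 or 2 libraries. Genes with a shared high bin were also longer (median 134 kb, against 75.2 kb over all genes of at least 5 bins). The contrast is therefore a description only.

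**Figure D3:**
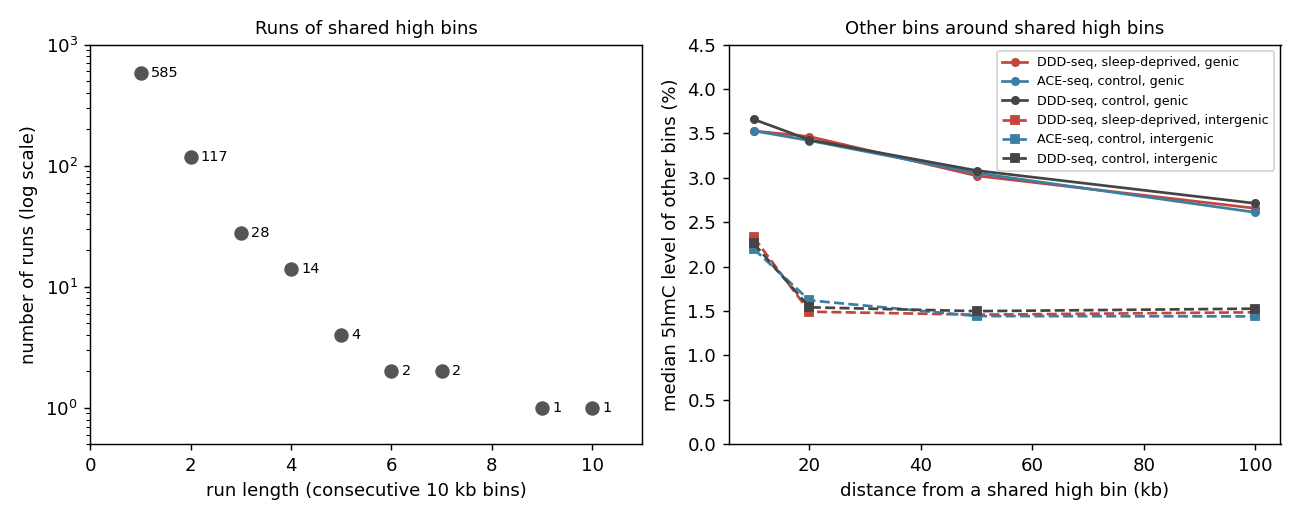
Left, number of runs (log scale) against run length in consecutive 10 kb bins, with the count beside each point; 585 runs were a single bin and the longest had 10. Right, median level (%) of other bins against distance in kb from a shared high bin, for genic (solid) and intergenic (dashed) bins in the sleep-deprived DDD-seq, ACE-seq control and DDD-seq control libraries; the genic medians lay above the intergenic ones at every distance, and the intergenic point at 10 kb rests on 8 bins.

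Inside genes the bins lay toward the 5′ end but not at the start. Place was read in 5012 genes of at least 5 bins whose strand is known from the RefSeq starts, which gave 756 pairs of a gene and a shared high bin. The first 3 deciles of the gene held 48.0% of these pairs, against 29.2% of all bins of the same genes. The last 3 deciles held 12.4%, against 30.9%. The share of bins in the set was 1.30% in decile 1, 2.19% in decile 2 and 1.90% in decile 3, and it was lower in each later decile, with 0.215% in decile 10. The bin that holds the outer start, the annotated 5′ end of the gene, was in the set in 1 of 5005 genes, Orc4, where it overlaps Mbd5. The next bin was in the set in 112 genes (2.24%) and the third bin in 101 (2.02%). The bin with the gene end was in the set in 3 genes, Etv1, Orc3 and Ppp2r3a, and those of Orc3 and Ppp2r3a also overlap another gene. End bins lie partly outside the gene, so their levels mix genic and intergenic sequence.

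Levels near the start are given for genes with and without a shared high bin; in the first group the rule used these values, and nothing is read from their size. In genes with a shared high bin, the start bin averaged 1.74% in the sleep-deprived library, 1.92% in the ACE-seq control and 1.80% in the DDD-seq control (294 genes), and the next bin 4.78%, 4.76% and 4.80%. In genes without one, the start bin averaged 1.41%, 1.42% and 1.43% (4711 genes) and the next bin 1.85%, 1.79% and 1.85%. The share of the set in the first 3 deciles was 39.1% in genes of 5 to 9 bins, 51.2% in genes of 10 to 19, 55.2% in genes of 20 to 49 and 44.0% in longer genes. In genes of at least 50 bins, 21.6% of the set lay in the last 3 deciles, more than in any shorter class.

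**Figure D4:**
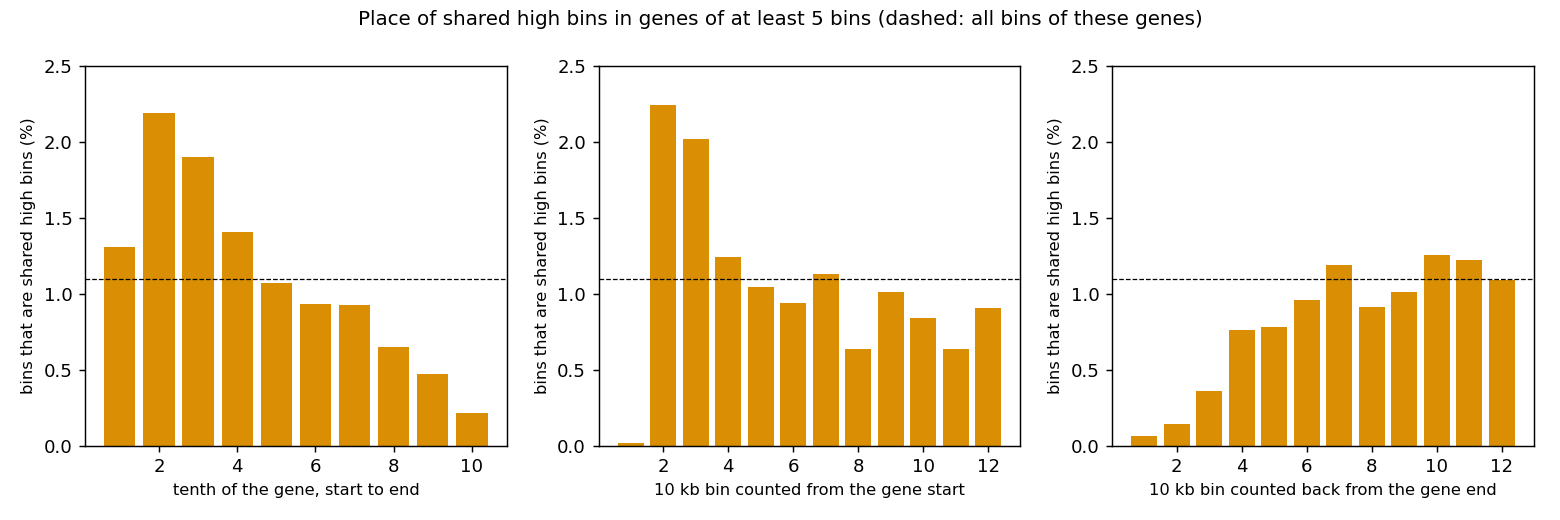
Share (%) of bins that were shared high bins, by decile of the gene from start to end (left), by 10 kb bin counted from the start (middle) and by 10 kb bin counted back from the end (right), over genes of at least 5 bins with known strand; the dashed line is the share over all bins of these genes. The second bin from the start had 2.24%, and the start bin and the end bin were near 0.

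Distance was also counted from the nearest listed start upstream, most of which are outer starts: 12 of 5973 bins that hold a start were in the set (0.201%), 142 of 5702 bins directly after one (2.49%), 112 of 5457 at 2 bins (2.05%) and 65 of 5206 at 3 bins (1.25%). The share was 0.963% at 4 to 5 bins, 0.867% at 6 to 10, 0.978% at 11 to 20 and 1.06% at 21 to 50. Beyond 50 bins it was 0.564%. In all, 756 of 69126 pairs of a gene and a bin were in the set. Some high bins far from the outer start lay after an inner start. There were 165 listed starts at least 10 bins inside a gene and 10 bins from its end. In the 29 genes of these that held a shared high bin, with 37 inner starts, 16 such bins lay in the 10 bins before the inner start and 42 in the 10 bins after it. All of this difference lay in the 9 genes with at least 5 shared high bins (12 of the 37 starts), where 6 such bins lay before and 33 after. The remaining starts had no excess of such bins after the start. Counts are per start, and windows of neighbouring starts can overlap, so a bin may count more than once. In Celf2, 5 bins counted after 1 start and 5 before a further one, although the gene holds 7. The level was higher after than before at 21 of the 37 starts in the sleep-deprived library, 22 in the ACE-seq control and 23 in the DDD-seq control. In genes without a shared high bin it was higher after at 81, 76 and 75 of 128 inner starts in the same order. These shares are similar, so this count is not particular to genes with a shared high bin. The mean level was 2.80%, 2.84% and 2.80% before (sleep-deprived, ACE-seq control and DDD-seq control) and 3.56%, 3.54% and 3.58% after. In the 105 genes without a shared high bin, the corresponding levels were 1.82%, 1.78% and 1.82% before and 1.98%, 1.88% and 1.96% after. This reading was chosen after the values were seen, and in genes with a shared high bin the rule used these levels.

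The 10 bins before the inner start of Nrxn3 at position 89812483 averaged 2.61% in the sleep-deprived library, 2.67% in the ACE-seq control and 2.17% in the DDD-seq control, and the 10 bins after it 8.30%, 8.06% and 8.28%. Of its 25 shared high bins, 24 lay after this start and 1 before. Longer and shorter neurexin forms begin at different promoters, and this start is the innermost of the 3 listed for Nrxn3. In Cdh18 all 11 shared high bins lay after the listed start, with 6.01%, 7.01% and 7.003% over the 10 bins after it and 1.91%, 1.98% and 1.71% before. In Gpm6a all 8 lay after the inner start, with 8.39%, 9.21% and 8.48% after and 1.61%, 2.002% and 1.58% before. The 10 bins after these starts include 9 shared high bins in Nrxn3, 6 in Cdh18 and 8 in Gpm6a, which the rule chose by these levels. Nothing is therefore read from the size of these steps. The single bins of Gpm6a ranged between 5.86% and 13.0% in the sleep-deprived library, between 6.51% and 13.0% in the ACE-seq control and between 5.64% and 12.6% in the DDD-seq control. Lsamp, an adhesion gene of the IgLON family, had 8 after and 0 before its inner start.

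Other genes did not share this order. Fgf14 held 11 shared high bins before its inner start and none after it. Celf2 has several inner starts: all 7 of its shared high bins lay after the start at position 6872035, with 5.52%, 5.63% and 5.96% over the 10 bins after it, and all 7 lay before a further start at position 6721662. The rule used these levels as well. In Kcnd2, Grik2 and Gabrb2, whose listed starts all lie at the outer end, the high bins began within the first bins of the gene. The files hold no RNA measurement, so which starts were in use in these tissues was not measured.

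**Figure D5:**
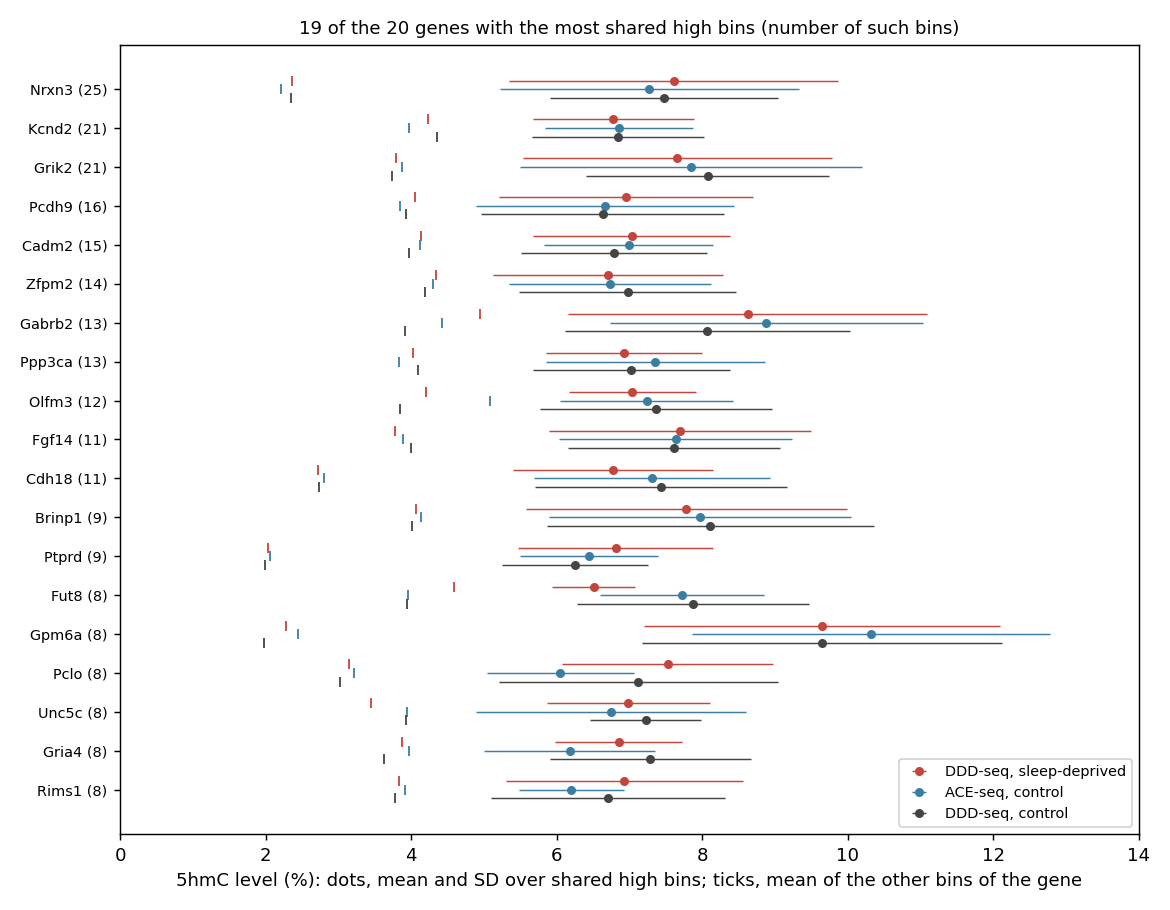
Level (%) over the shared high bins of 19 of the 20 genes with most of them, as mean (dot) and SD over bins (bar), with the mean of the other bins of the gene (tick), in the sleep-deprived DDD-seq (red), ACE-seq control (blue) and DDD-seq control (black) libraries; the number of shared high bins is in brackets. The means of the 3 libraries lay close together in Fgf14 (7.69%, 7.63% and 7.61%) and farthest apart in Pclo (7.52%, 6.05% and 7.12%), and the other bins of each gene lay below.

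Within genes the libraries ranked differently from gene to gene. In Gpm6a the shared high bins averaged 9.65% ± 2.45 in the sleep-deprived library, 10.3% ± 2.46 in the ACE-seq control and 9.65% ± 2.47 in the DDD-seq control, the highest means among the 20 genes with most of these bins. In Fut8 the sleep-deprived library was lower, with 6.51% ± 0.57 against 7.72% ± 1.13 in the ACE-seq control and 7.88% ± 1.59 in the DDD-seq control (8 bins). In Pclo the means were 7.52% ± 1.45 in the sleep-deprived library, 6.05% ± 1.01 in the ACE-seq control and 7.12% ± 1.92 in the DDD-seq control, with ACE-seq lowest. With 1 library per group these differences have no error between animals, and the same genes were chosen by these values.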

How the data were processed

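5hmC was measured in 3 mouse cerebellum libraries, 1 per group. The deposited table gives 1 fraction (0 to 1) per library in consecutive 10 kb bins; fractions were multiplied by 100 here. Trimming, Bismark, sorting, merging and a step named hapinfo are named per the file headers, and FastQC, Trimmomatic and Bismark per the submitters' processing notes. The headers of the DDD-seq columns include "all", and these columns are taken as the authors' pooled values. Nothing states the cytosine contexts, the averaging or a coverage filter. The table holds no counts, so the depth is unknown and no interval or detection limit was possible. Levels include unconverted cytosine, since spike-in DNA without 5hmC was not used here. The build in the processing notes is hg19, which is human, but on the 19 autosomes the last bin ended 1.33 to 132 kb after the last gene of GRCm38.p6, and bins were read as GRCm38.

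Genes, starts and sequences came from RefSeq tables of that build; 20538 of 20661 autosomal protein-coding genes had a bin, and 16456 had a listed start and thus a strand, among them 328 of the 424 genes with a shared high bin. Of the listed symbols, 2314 matched. A bin counted for every protein-coding gene it overlapped by at least 1 bp. A gene level is the mean over its bins, and SDs are over bins, not animals. With 1 library per group no test was made. The genes named are the 20 with most shared high bins, those of the 5 longest runs, the 5 of at least 20 bins with the highest share, and up to 4 per list with its longest gene without such a bin; some genes and 1 list that meet this rule are not reported here, and others are said to be chosen after their values were seen. The members and gene lists were chosen with earlier results of these data known. The alternatives were thresholds of 4% and 6%, a rule that leaves out a library, 5000 bp of overlap, runs that bridge 1 bin, other gene sets, the median, and a distance of 2 bins. The software was Python 3.11.15 with scipy 1.17.1, pandas 2.3.3, matplotlib 3.10.9 and numpy 2.4.6, and the selection of bins, overlaps and runs was tested on simulated data.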

Additional observations from a re-analysis of the deposited data

How the results depend on the processing

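The threshold set most counts. At 4% there were 2388 shared high bins in 780 genes, 53.4% of them in runs of at least 2 bins, with a longest run of 17 bins and 44.1% in the first 3 deciles of the gene. At 6% there were 413 bins in 219 genes, 34.4% in such runs, a longest run of 6 bins, 52.6% in the first 3 deciles and 0% in the start bin. A rule without the sleep-deprived library put 46.5% of bins in runs and gave a sleep-deprived minus control difference of −0.244 points. Without the ACE-seq library in the rule, ACE-seq minus DDD-seq was −0.448 points. Without the DDD-seq control in the rule, sleep-deprived minus control was 0.349 points and ACE-seq minus DDD-seq was 0.261 points, the opposite sign to that of the full rule. By construction, a library left out of the rule no longer has to reach the threshold. With 1 bin bridged, 55.1% of bins lay in runs. The share in the start bin was 0% in genes of at least 20 bins and where each bin went to its longest gene only. A margin was set for each value: a 95% interval over bins for shares and library differences, and 1.5 times for counts. For the level of neighbouring bins it was 1 SD over bins, which is wide. Bins are not replicates and many lie in runs, so these margins are no test of stability. The other 61 values tried lay within them. Of these, some small values moved by more: sleep-deprived minus control was 0.0817 points at 6% and −0.00577 points without the Ccl21b bin (an alternative chosen after seeing the data), 0.00817 points as a median, and −0.0411 points was the median of ACE-seq minus DDD-seq. The share in the start bin was 0.229% at 4% and 0.216% without the DDD-seq control in the rule, against 0.132%. Also, 24 or 25 of 35 lists stayed above the share of all genic bins when a library was left out of the rule. The share of single lists moved in 23 of 35 lists at 4% and in 22 at 6%. No paired analysis was possible because each group has 1 library.

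The unknown depth limits every level, and the smallest differences between libraries have no error attached. A level of 10 kb averages over cytosines of unknown number, and gene ends, promoters and bins shared by 2 genes are mixed in it.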

Other observations

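The X chromosome lies outside the autosomal rule. At the same threshold in all 3 libraries, 89 of its 5295 genic bins passed (1.68%), in 28 genes. Tenm1, a teneurin adhesion gene, held 24 of 91 bins, and Cnksr2, a synaptic scaffold gene, 16 of 23. Cask, a scaffold kinase gene that binds neurexins, held 8 of 34, Kdm6a, a histone demethylase gene, 6 of 12 and Tspan7, a tetraspanin gene, 4 of 12. The copy number of the X chromosome in these libraries was not measured, and the labels do not give the sex of the animals.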
